A study of Mus musculus and Homo sapiens with 22 samples.

Results

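The Hox genes are the 39 protein-coding mouse genes whose symbols are Hoxa, Hoxb, Hoxc or Hoxd followed by a number, chosen by symbol alone from the 56196 genes in the count files. They encode homeodomain transcription factors that give cells of the embryo their position along the head-to-tail axis. They lie in 4 clusters, and genes of the same number in different clusters are paralogues. In the developing embryo the low-numbered genes are switched on earlier and further forward than the high-numbered, or posterior, ones, and in pluripotent cells the clusters are held largely silent by Polycomb repression.

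The study mapped N6-methyladenosine (m6A), a methyl mark that the METTL3 methyltransferase places on adenosines of mRNA, in mouse embryonic stem cells (mESCs), the human embryonic kidney line HEK293T and mouse heart. RNA-seq of poly(A)+ RNA compared 3 libraries of wild-type (WT) mESCs with 3 of Mettl3 knockout (KO) mESCs, both lines taken from earlier work and grown with fetal bovine serum and leukaemia inhibitory factor. The m6A sites were deposited as 1 list for WT mESCs, 1 for HEK293T cells and 4 for mouse heart RNA at different input amounts, each site with a score. The number of independently derived clones behind each genotype was not given in the sources used here, so the p-values measure the spread between these libraries.

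The 6 libraries held 22746733 to 27254245 gene counts, at which 3 counts, the floor used below, corresponded to 0.101 to 0.142 CPM (counts scaled to TMM-adjusted library size). In WT, Mettl3 itself had 560, 698 and 612 counts, and in KO it had 462, 669 and 457, a log2 change of -0.50 ± 0.14 (SE, adjusted p = 0.0134 by edgeR's quasi-likelihood test), with every KO library below every WT library in CPM. Its transcript was thus still counted in KO, and the deleted part of the gene is not given in the sources used here, so gene-level counts do not check the labels. The pluripotency factors Pou5f1, Sox2 and Nanog had mean levels of 649, 370 and 678 CPM in WT and 543, 373 and 647 CPM in KO.

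In the mESC list of 25456 sites, 4 sites lay in Hox exons, 3 in Hoxc13 and 1 in Hoxc12, neighbours at the posterior end of the Hoxc cluster. These 4 had a median score of 0.657, beside 0.745 for the whole list. Their sequences are shown because they are all the predicted sites that the list placed in the Hox genes. Each runs 5′ to 3′ on the plus strand of mouse build GRCm38 (sequence from the RefSeq copy of the assembly), with the predicted adenosine in the middle and the 5 bases centred on it in capitals.
Hoxc13 coding sequence, chr15:102921740-102921760: ggctacctGGACGtgtcggtg
Hoxc13 coding sequence, chr15:102921842-102921862: aatggctgGGACAgtcaggtg
Hoxc13 3′ UTR, chr15:102927687-102927707: ggcctttgTGACTtgtcccac
Hoxc12 coding sequence, chr15:102938471-102938491: aaaagaaaAGACTtctgctga
In 3 of the 4 the capitals matched DRACH, the motif preferred by the METTL3 complex (A, G or T, then A or G, then A, C and finally A, C or T). The first Hoxc13 site, whose capitals end in G, did not match.

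In HEK293T cells the human HOXC13 gene carried 5 sites in its exons. The 2 printed here beside the mouse sites had the same 21 bases as the mouse coding sites (human build GRCh38, plus strand).
HOXC13 coding sequence, chr12:53939465-53939485: ggctacctGGACGtgtcggtg
HOXC13 coding sequence, chr12:53939567-53939587: aatggctgGGACAgtcaggtg
The non-DRACH adenosine scored 0.625 in mESCs and 0.573 in HEK293T cells, and the DRACH adenosine scored 0.582 in both, the same value to all deposited decimals. The m6Aboost predictor behind the scores reads the 21-nt sequence, the transcript region and 2 measures of the crosslinking signal at the site, so these scores share their sequence and region. In both species the 2 adenosines lay at -421 and -319 nt, counted along the transcript from the last coding base before the stop codon.

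Most Hox genes were at or close to the floor in mESCs. Of the 39, 11 had 3 counts or fewer in all 6 libraries, and Hoxb5 and Hoxb6 had no count in any, which allows at most 0.142 CPM in each library. These 11 were 28.2% of the Hox genes, beside 29.4% of the 21899 protein-coding genes. Among the 11, Hoxa2, Hoxa3, Hoxd3 and Hoxd11 share exon bases with another gene on their strand. Reads on shared bases may not have been counted for them, and in Hoxd3 only 1578 of 4191 exon bases were its own. A WT mean below 10 counts was found for 26 of the 39 Hox genes, beside 8947 of the 21899 protein-coding genes. A count above 3 in every library was found for 16 Hox genes in WT and 18 in KO, for which no share over all genes was taken. In the Hoxc cluster all 9 members had more than 3 counts in at least 1 library, against 6 of 11 in Hoxa, 7 of 10 in Hoxb and 6 of 9 in Hoxd.

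**Figure D1:**
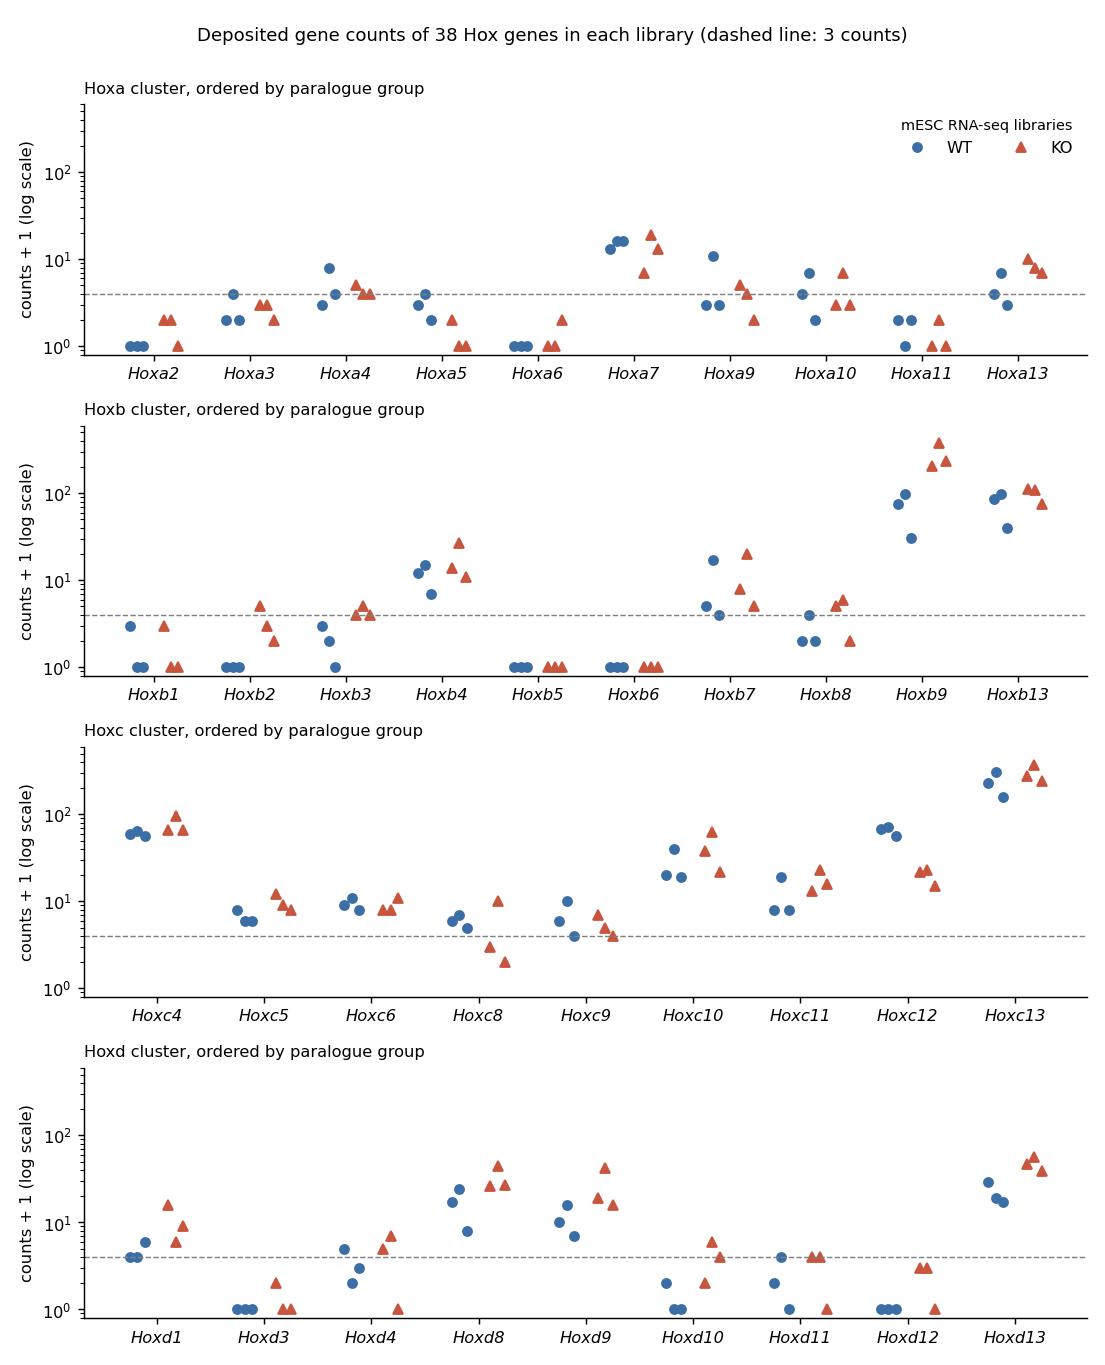
Deposited counts plus 1 (log axis) of 38 Hox genes in the 3 WT libraries (circles) and 3 KO libraries (triangles), 1 panel per cluster with genes in order of paralogue number; the dashed line marks 3 counts. Hoxb9 lies higher in KO and Hoxc12 lower in KO, while Hoxc13 is the most counted gene in WT and Hoxb5 and Hoxb6 are at 0 throughout.

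Posterior genes made up most of the Hox reads. In paralogue groups 9 to 13 the 16 genes gave 65.6% to 78.0% of the summed Hox CPM of a library, the 12 genes of groups 1 to 4 gave 14.1% to 26.0%, and the 11 genes of groups 5 to 8 gave 6.36% to 8.80%. In the sum over all 39 genes the WT libraries had 34.5, 35.0 and 24.3 CPM and the KO libraries 39.4, 46.8 and 32.2 CPM, which overlapped. For comparison, a single gene at the median of the 15731 tested genes had 14.8 CPM in WT. The highest Hox gene, Hoxc13, had a larger WT mean count than 60.6% of protein-coding genes.

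Per kilobase of the exon sequence that each gene shares with no other gene on its strand, Hoxc13 had the highest WT level at 4.04 ± 0.89 CPM per kb (SD, n = 3), followed by Hoxc12 at 2.72 ± 0.30 CPM per kb. Hoxb13, Hoxb9 and Hoxc4 were lower, at 1.45 ± 0.54, 1.11 ± 0.48 and 1.01 ± 0.06 CPM per kb, with SDs that overlapped. In KO the order changed at the top: Hoxc13 (4.37 ± 0.71 CPM per kb) and Hoxb9 (3.78 ± 0.96 CPM per kb) overlapped within their SDs, and Hoxc12 fell to 0.68 ± 0.16 CPM per kb. Low-numbered genes were not uniformly silent, since Hoxc4 had a level within the SD of the posterior Hoxb9 in WT.

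The KO and WT libraries were compared with edgeR over all genes that passed its filter on low counts. The filter kept 13 Hox genes, and 2 of the 13 were called at an adjusted p of at most 0.01: Hoxb9, higher in KO, and Hoxc12, lower in KO. Over all 15731 genes tested, 29.7% were called, 17.1% as higher and 12.6% as lower in KO, so the Hox share called (15.4%) was not above the background. The 26 Hox genes left out by the filter carried too few counts to be tested, so the 13 are not a sample of the clusters. Among the 13 the median log2 change was 0.37, beside -0.02 over all genes tested. The filter keeps a gene when enough libraries pass, whichever their genotype. Low genes such as Hoxd9 (9, 15 and 6 counts in WT, 18, 41 and 15 in KO) could thus enter through KO. The median is therefore not read as a direction of the clusters.

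Hoxb9, a posterior gene of the Hoxb cluster at chr11:96271457-96276595, was counted 74, 96 and 30 times in WT, against 203, 373 and 232 times in KO. Every KO library lay above every WT library, and WT replicate 3 was the lowest of the 6. On the CPM scale its level went from 2.85 ± 1.25 to 9.74 ± 2.47 (SD, n = 3), a log2 change of 1.76 ± 0.33 (SE), or 3.40-fold (edgeR adjusted p = 0.00184). No Hoxb9 site was in the mESC list. In bulk samples such as these, a change in the number of cells with a transcript and a change in its amount per cell cannot be told apart.

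Hoxc12, at chr15:102936757-102938609, gave 67, 70 and 55 counts in the WT libraries and 21, 22 and 14 in the KO libraries. Every KO library lay below every WT library. Its level went from 2.81 ± 0.31 to 0.70 ± 0.16 CPM, a log2 change of -2.00 ± 0.29 (SE), with an edgeR adjusted p of 0.000385. Hoxc12 is the gene with the mESC site aaaagaaaAGACTtctgctga, scored 0.698 and placed at -33 nt from the last coding base. Among the 6607 tested genes with an exonic mESC site 14.4% were called lower and 17.3% called higher.

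Its neighbour Hoxc13, with 3 mESC sites, had 229, 305 and 158 counts in WT, against 273, 369 and 242 in KO. The groups overlapped, and the log2 change was 0.11 ± 0.21 (SE, edgeR adjusted p = 0.689). Hoxc13 is known from hair and nail formation. The 2 Hox genes with an mESC site thus gave different values in the same comparison, and the difference between them was not tested.

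**Figure D2:**
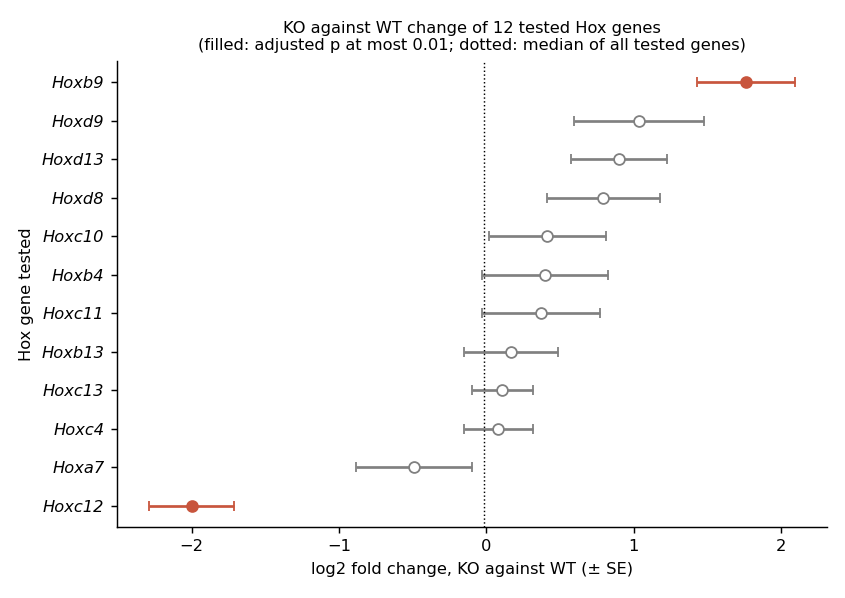
Log2 fold change of KO against WT (horizontal axis, bars are the SE of the edgeR fit) for 12 of the 13 tested Hox genes; filled points passed an adjusted p of at most 0.01 and the dotted line is the median of all tested genes. Hoxb9 at 1.76 and Hoxc12 at -2.00 are the filled points at the ends of the range.

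In the Hoxd cluster the posterior gene Hoxd13, which patterns the digits and the genital tubercle, had 28, 18 and 16 counts in WT, against 46, 56 and 38 in KO. Its groups did not overlap, but the log2 change of 0.90 ± 0.33 (SE) had an edgeR adjusted p of 0.0445 and was not called. Hoxd8 had 16, 23 and 7 counts in WT, against 25, 44 and 26 in KO, with a log2 change of 0.79 ± 0.38 and an edgeR adjusted p of 0.114. Hoxd9 had 9, 15 and 6 counts in WT, against 18, 41 and 15 in KO, with a log2 change of 1.03 ± 0.44 and an edgeR adjusted p of 0.078. In CPM, the KO libraries lay above the WT libraries for Hoxd8, and for Hoxd9 they overlapped. Of the 13 tested Hox genes, 3 (Hoxb9, Hoxd8 and Hoxd13) had every KO library above every WT library in CPM, and 1 (Hoxc12) had every KO library below. Over all genes tested those shares were 29.2% and 26.9%.

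In the Hoxc cluster Hoxc10 had 19, 39 and 18 counts in WT, against 37, 62 and 21 in KO, and Hoxc11 had 7, 18 and 7 in WT against 12, 22 and 15 in KO. Hoxc4, the most anterior gene of the cluster, had 58, 64 and 55 counts in WT, against 65, 95 and 65 in KO. In all 3 the groups overlapped in CPM, and edgeR adjusted p-values ran from 0.417 for Hoxc10 to 0.802 for Hoxc4. The other members, Hoxc5, Hoxc6, Hoxc8 and Hoxc9, had 1 to 11 counts.

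In the Hoxb cluster Hoxb13, a posterior gene known from the prostate and the tail bud, had 86, 98 and 39 counts in WT, against 112, 107 and 75 in KO, an overlap with a log2 change of 0.17 ± 0.32 (SE). Hoxb4, known from blood stem cells, had 11, 14 and 6 counts in WT, against 13, 26 and 10 in KO. Hoxb7, which the filter left out, had 4, 16 and 3 counts in WT, against 7, 19 and 4 in KO, with replicate 2 the highest in both genotypes. The other 6 Hoxb genes had 0 to 5 counts.

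In the Hoxa cluster Hoxa7 had 12, 15 and 15 counts in WT, against 6, 18 and 12 in KO. It overlapped between genotypes in CPM, with an edgeR adjusted p of 0.329. Another 9 Hoxa genes had 0 to 10 counts, and those of the other 6 Hoxd genes ran from 0 to 15, the highest being Hoxd1 in KO replicate 1.

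Summed by cluster, Hoxc was the largest in WT at 17.9 ± 2.8 CPM (SD, n = 3) and was at 17.1 ± 3.1 CPM in KO. Hoxb had 6.96 ± 2.80 CPM in WT and 14.7 ± 3.1 in KO, without overlap. The other 9 Hoxb genes, summed without Hoxb9, had 4.11 ± 1.56 CPM in WT and 4.91 ± 1.26 in KO, which overlapped. Hoxd had 2.34 ± 0.61 CPM in WT and 4.45 ± 1.07 in KO, again without overlap, and Hoxa had 4.01 ± 0.13 and 3.28 ± 0.41 CPM, with every KO library below the WT ones, although the Hoxa groups overlapped when scaled by library size only. The Hoxb and Hoxd groups did not overlap under any of the 3 scalings. These sums were given no test, and no single Hoxa or Hoxd gene was called.

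**Figure D3:**
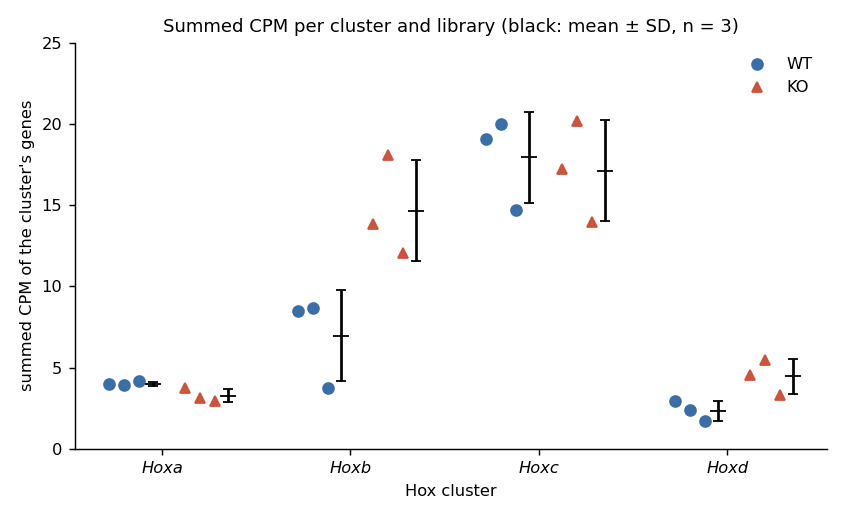
CPM summed over the genes of each Hox cluster (vertical axis) in the WT (circles) and KO (triangles) libraries, with the mean and SD of 3 libraries in black. The Hoxb and Hoxd points are higher in KO and the Hoxa points lower (overlapping when scaled by library size only), while the Hoxc points of both genotypes cover the same range.

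Replicate 2 tended to be the highest library for Hox genes in both genotypes. For 7 of the 13 tested Hox genes it had the highest CPM in WT and in KO alike, against 19.7% of all genes tested. Hoxb9 was among these 7, with 3.65 CPM in WT replicate 2 and 12.6 CPM in KO replicate 2, yet KO replicate 1 (8.07 CPM) also exceeded every WT library.

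Of the other genes inside the 4 cluster spans, 46 were listed and 35 of these had 3 counts or fewer throughout. The 2 that were tested, the lincRNA Gm53 near Hoxb13 and Hoxb9 and the microRNA gene Mir196a-1, were not called, with an unadjusted p under 0.05 for 0 of them and 0 called by DESeq2. Gm53 had 383, 542 and 267 counts in WT, against 341, 483 and 325 in KO, a log2 change of -0.29 ± 0.20 (SE), in the cluster where Hoxb9 rose. Haglr, a noncoding RNA of the Hoxd cluster, had no count in WT and 6, 2 and 11 in KO, too few to be tested. Hotairm1, a noncoding RNA of the Hoxa cluster, had 5, 9 and 5 counts in WT, against 3, 3 and 2 in KO, lower in every KO library, and was not tested either. Hotair, the noncoding RNA between Hoxc11 and Hoxc12, had a single count in all 6 libraries.

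The nearest 2 coding genes on each side of the clusters were 16, of which 13 were tested and 2 called, both lower in KO (15.4% called, beside 29.7% over all genes, and 12.6% called lower). Skap2, next to the Hoxa cluster, had a log2 change of -1.03 ± 0.11 (SE, edgeR adjusted p = 7.78e-05), and Snx11, a sorting nexin gene near the Hoxb cluster, had -0.86 ± 0.15 (edgeR adjusted p = 0.00145). Neither called neighbour flanked Hoxc12. The neighbours of the Hoxc cluster, Atp5g2, Calcoco1, Smug1 and Cbx5, had log2 changes from -0.47 to 0.42, all short of the threshold. Cbx5 and Calcoco1 were lower in every KO library in CPM (edgeR adjusted p = 0.0153 and 0.0196). Smug1 was higher in every KO library (edgeR adjusted p = 0.0197), and Atp5g2 overlapped (0.497). Evx1 and Evx2, homeobox genes at the posterior ends of Hoxa and Hoxd, had 0 to 2 counts.

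Genes that act with or upstream of Hox proteins were read in the same fit. In the list of 9 TALE cofactors (Pbx, Meis and Pknox homeodomain partners of Hox proteins), all 9 were tested and 2 were called. Meis2 rose from 103, 61 and 82 counts to 368, 317 and 237, a log2 change of 1.63 ± 0.29 (SE). Pbx4 fell from 204, 240 and 130 counts to 76, 106 and 77, a log2 change of -1.40 ± 0.23. The median of the list was 0.31, and 22.2% of it was called, beside 29.7% over all genes. Unadjusted, 6 of the 9 had an edgeR p under 0.05, for which no share over all genes was taken.

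Of the 6 Cdx and ParaHox genes, the Hox relatives and activators, Cdx1 and Gsx2 were tested and neither was called by edgeR (1, Gsx2, had an unadjusted p under 0.05) or by DESeq2. The activators Cdx2 and Cdx4 had 0 to 5 counts in every library, and Gsx1 had 0 to 2. The primitive streak and mesoderm list, tissues that first switch on Hox genes in the embryo, had 5 of 10 genes tested and none called by edgeR. Unadjusted, 0 of the 5 had a p under 0.05, and DESeq2 called 0. Mesp1 and Msgn1 were at 3 counts or fewer. Hand1, which was not tested, had 3, 3 and 3 counts in WT, against 11, 8 and 12 in KO. Msgn1, also not tested, had 2, 2 and 2 in WT, against 1, 1 and 1 in KO.

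In the retinoic acid pathway, which induces anterior Hox genes, 14 of 19 genes were tested, 3 rose and 2 fell (35.7% called, beside 29.7% over all genes). The vitamin A uptake receptor Stra6 (2.20 ± 0.37 log2, SE), the nuclear receptor Rxra (1.03 ± 0.18) and the retinol dehydrogenase Rdh10 (0.75 ± 0.18) rose. The retinoic acid binding protein Crabp2 (-2.20 ± 0.26) and the synthesis enzyme Aldh1a3 (-2.17 ± 0.31) fell. Rdh10 lost its call without any one library other than WT replicate 3. The list's median was 0.12, and the degrading enzymes Cyp26a1, Cyp26b1 and Cyp26c1 had 1 to 28 counts.

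Among 8 trithorax activators, which keep Hox genes on through histone H3 lysine methylation, 7 were tested and 2 fell (28.6% called, beside 29.7% over all genes): Ash2l (-1.16 ± 0.15 log2, SE) and Wdr5 (-0.44 ± 0.11), both core subunits of the methyltransferase complexes. Kmt2a, the methyltransferase best known for Hox activation, had a log2 change of -0.06 ± 0.12 and was not called. Wdr5 lost its call whichever library was left out, with library size only and with a minimum of 10 counts in every library. Men1 was listed at 0 in all 6 libraries. Whether reads of it were lost in the counting was not checked, so the 0 is not read as absence. The list's median was -0.38.

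Markers of other cell types were read beside the Hox values, against the 29.7% called over all genes. Of 10 neural markers 5 were tested and 1 (Map2) was called, higher, and the summed level of the list was 71.3 to 117 CPM in WT and 91.4 to 117 CPM in KO, which overlapped. Of 10 endoderm markers 8 were tested and 3 called (37.5%): Dab2 and Foxa2 were higher and Gata4 lower (its call was lost without KO replicate 1, KO replicate 3 or WT replicate 1), and the summed level of all 10 was 41.0 to 69.9 CPM in WT and 97.9 to 111 CPM in KO. Of 16 feeder fibroblast markers 6 were tested and 4 called (66.7%): Col5a2, Fbn1 and Thy1 were higher and Pdgfrb lower (its call was lost with library size only and without any one of the KO libraries or WT replicate 1), with a summed level of all 16 of 13.1 to 17.7 CPM in WT and 30.1 to 42.3 CPM in KO, while Dcn, Lum, Prrx1, Twist2 and S100a4 were at 3 counts or fewer in every library. Single genes weighed on these sums. Dab2 alone had a mean of 1.04 CPM in WT and 34.5 CPM in KO, and Acta2 had 328, 19 and 7 counts in KO. Gata6, Sox17 and Sox7 overlapped between genotypes, and Col1a1 was lower in every KO library without being called. Whether cells of these types were present, or had a part in the Hoxb9 and Hoxc12 values, was not tested.

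In HEK293T cells 32 of the 39 HOX genes had at least 1 site in an exon, against 36.5% of the 20046 annotated protein-coding genes. In mESCs the number was 2 of 39, beside 30.1% of 21951 genes. None of the 4 heart lists, each from 1 library, had a site in a Hox exon. The largest, with 46421 sites, covered 38.3% of coding genes and the others 16.0%, 3.17% and 0.861%. RNA levels in HEK293T and heart were not analysed here.

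In mESCs the share of genes with a listed site was larger at higher counts, and 38 of the 39 Hox genes had a WT mean below 100 counts. Of protein-coding genes with a WT mean below 10 counts, 1.03% had an exonic site, and of the 26 Hox genes in that range none had. From 10 to below 50 counts the share was 1.76%, with 0 of 7 Hox genes. From 50 to below 100 it was 7.77%, with Hoxc12 the only one of 5, and from 100 to below 500 it was 39.7%, where Hoxc13 was the lone Hox gene.

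The HEK293T list placed 187 sites in HOX exons and 24 more inside HOX genes but outside their annotated exons. Each HOX gene with a site had 1 to 15 exonic sites, with a median of 5, where the median over all coding genes with a site was 3. Per kilobase of exon the median was 2.23 sites for the HOX genes and 0.70 for all. HOXD13 had 15 sites, HOXD10 and HOXD11 had 13 each (8 of them in exons shared by both), HOXA11 and HOXB9 had 12, and HOXB13 had 11. The 7 genes without an exonic site were HOXA2, HOXB1, HOXC5, HOXC8, HOXC12, HOXD1 and HOXD12.

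**Figure D4:**
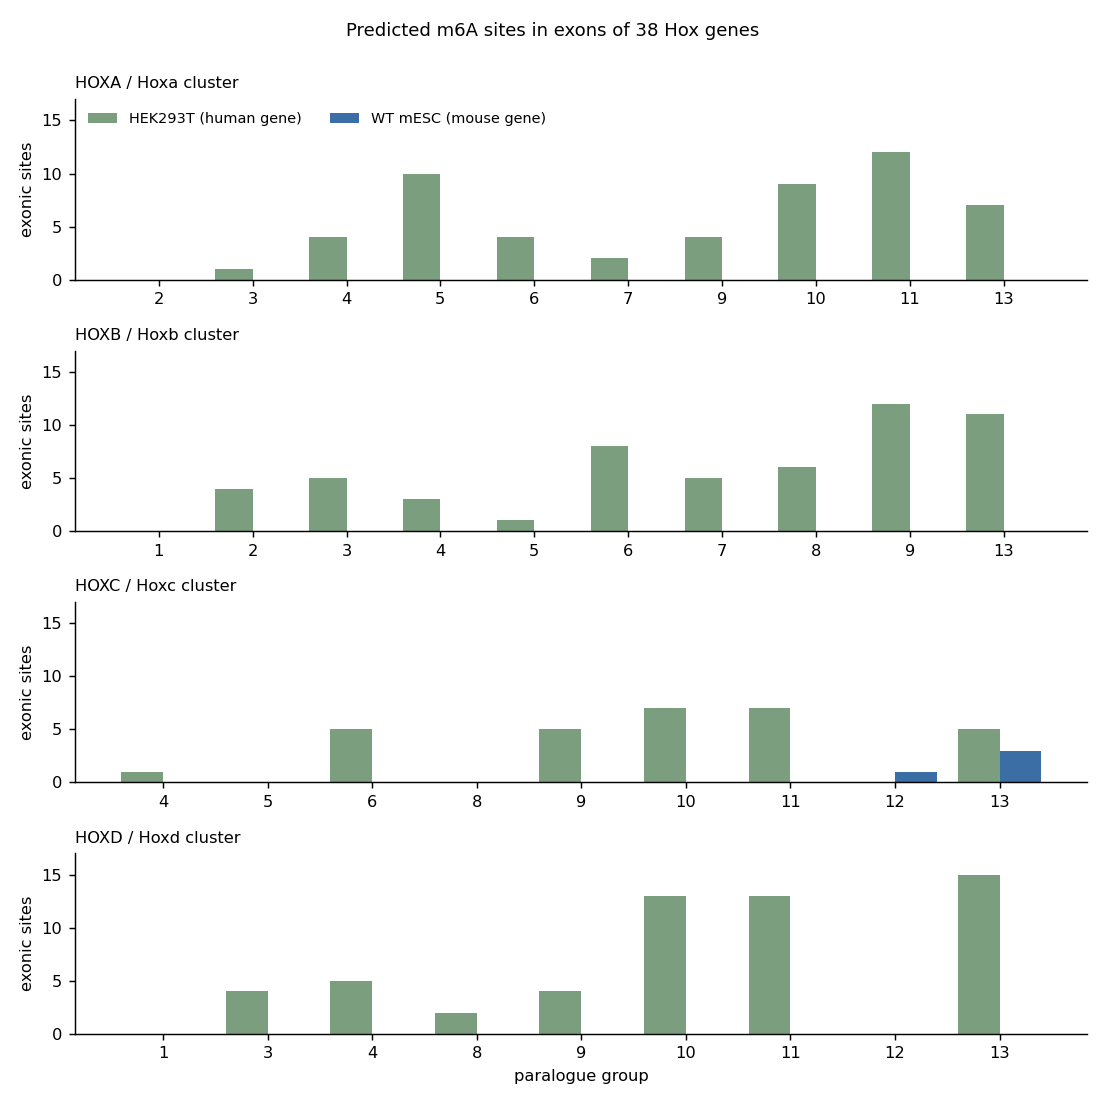
Number of predicted m6A sites in exons of 38 HOX genes in HEK293T cells (green) and of the matching Hox genes in WT mESCs (blue), by cluster and paralogue group. Green bars reach 15 sites at group 13 of the HOXD cluster, and the only blue bars are Hoxc12 with 1 and Hoxc13 with 3.

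Posterior HOX genes carried the larger numbers. The median was 7 sites per gene over the 16 genes of groups 9 to 13, 4 over the 11 genes of groups 5 to 8, and 2 over the 12 genes of groups 1 to 4. Per kilobase the medians were 2.69, 1.45 and 0.53 sites. HOXC12 and HOXD12 were the genes of groups 9 to 13 with none. In the mESC list the one Hoxc12 site thus had no counterpart in HOXC12, whose closest 21 bases differed at 1 base and kept the DRACH motif.

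The highest-scoring exonic site of each HOX cluster is shown to give the sequence behind the strongest predictions (GRCh38, 5′ to 3′ on the gene's strand, capitals as above).
HOXB3 3′ UTR, chr17:48550278-48550298, minus strand: gaagagagAGACTgtggagct
HOXA11 3′ UTR, chr7:27182048-27182068, minus strand: cacagagtGGACTgttccctg
HOXC4 exon of a transcript without coding sequence, chr12:54053295-54053315, plus strand: gaggggctGGACTctggtatc
HOXD11 coding sequence, chr2:176109003-176109023, plus strand: aagagaaaAGACTtcaactct
They scored 0.981, 0.962, 0.956 and 0.906, and all 4 ended their DRACH motif in ACT. The HOXD11 site was also, among the 187 HEK293T sites, the one closest in sequence to the mESC site of Hoxc12, with 5 mismatches in 21 bases. HOXC13 had 3 further sites, at chr12:53945146-53945166 in the coding sequence (0.709) and at chr12:53945810-53945830 and chr12:53945904-53945924 in the 3′ UTR (0.868 and 0.887).

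DRACH was found at 165 of the 187 HOX sites (88.2%), beside 89.2% of sites in coding genes on the 4 chromosomes that hold the human clusters. The commonest 5 bases were GGACT at 29 sites, GGACA at 23 and GGACC at 21. The median score was 0.725 for the HOX sites and 0.715 for the whole list. Of the HOX sites 97 lay in the 3′ UTR and 86 in the coding sequence (51.9% and 46.0%, beside 48.7% and 46.5% of those background sites). Of the 185 HOX sites in a coding transcript, 56.8% lay within 400 nt of the last coding base, beside 47.3% for the background. Transcript length was not matched between the 2.

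**Figure D5:**
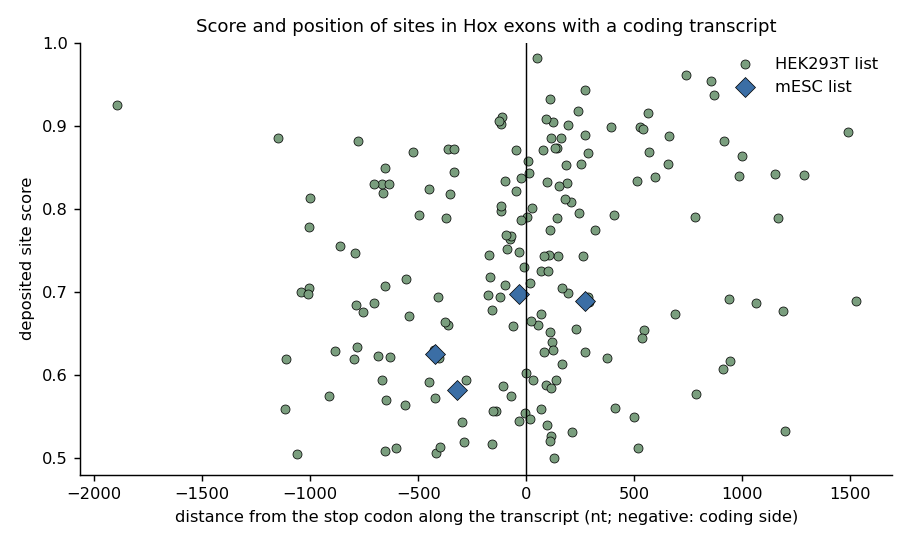
Deposited score (vertical axis) against distance from the stop codon along the transcript in nt (horizontal axis, coding side negative) for exonic sites of 38 HEK293T HOX genes (circles) and mESC Hox genes (diamonds). The 4 mESC diamonds score below 0.70, within the range of the HEK293T circles around them.

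Much of the sequence around the human sites was also present in the mouse genes. Of the 187 sites, 34 in 16 genes had an identical 21-base stretch in an exon of the mouse orthologue, and 97 had a stretch with at most 2 mismatches, 78 of them with DRACH kept at its centre. Only the 2 HOXC13 adenosines were also listed in mESCs. Of the other 38 mouse Hox genes none had a WT mean above 100 counts, and the part of RNA level in this difference was not tested.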

How the data were processed

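RNA-seq of WT and Mettl3 KO mESCs and miCLIP2 of WT mESCs, HEK293T cells and mouse heart were analysed from the processed files. The deposited gene counts are whole reads per gene that the authors obtained with STAR 2.6.1b on GRCm38.p6 and HTSeq 0.12.4 (reverse strand, GENCODE M23). The deposited score of each m6A site comes from the authors' m6Aboost predictor. Replicates of WT mESCs and of HEK293T cells were combined in 1 list each, and each heart list came from 1 library. The scale of the heart scores is not given in the sources used here, and they were not used. The 39 Hox genes, the pathway and marker lists and the rules below were chosen with earlier results of these data known.

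Lines that name no gene were left out: 17.6% to 22.6% of reads fell in no gene and 13.9% to 15.2% aligned to several places. Genes and sites were placed on GENCODE M21 (mouse, matching 98.1% of gene IDs) and GENCODE 44 (human), not the release used for counting, and a site counts for a gene when it lies in an exon on the same strand. Counts were tested with edgeR 4.0.16 (filterByExpr, TMM scaling, glmQLFTest) over 15731 genes, called at a Benjamini-Hochberg adjusted p of at most 0.01, the SE being the log2 change divided by the square root of F. The pipeline was tested on simulated data. CPM use TMM-scaled library sizes. The floor of 3 counts per library covers counting error only. Counts in each library are given for Hox genes that average 10 or more in either genotype, that were called, or that hold an mESC site. From each list the called genes are named, at most 4, with the defining members at 0. Rdh10, Kmt2a, Hand1, Msgn1, the pluripotency and cell type markers, and the Cdx, Gsx and Cyp26 genes lie outside that rule. So does the Hoxb sum without Hoxb9, and all of these were chosen after their values were seen. Of the Hox genes 9 share exon bases with another gene on their strand, of which only Hoxc10 was tested. The values of 1 Hoxa gene are not reported here, and it is left out of the plots of single genes and sites but kept in counts and sums.

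The replicate numbers recur in both genotypes. Deviations from the genotype means correlated at 0.122, 0.464 and 0.303 for replicates 1, 2 and 3. Unmatched numbers correlated at -0.342 to 0.110, the highest (WT replicate 3 with KO replicate 1) being close to matched replicate 1. The numbers were taken as pairs in an alternative fit. Replicates of a genotype differed beyond sampling noise, with chi-square values of 7.92 to 92.3 per degree of freedom. DESeq2 1.42.0, other scalings, filters and thresholds, and leaving out each library were the alternatives.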

Additional observations from a re-analysis of the deposited data

How the results depend on the processing

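Hoxb9 and Hoxc12 were called in every fit, with log2 changes of 1.45 to 1.98 and -2.14 to -1.82 and adjusted p of at most 0.00876 and 0.00289 over 12 alternatives each. Hoxd13 joined them at an adjusted p of at most 0.05, which gave 3 Hox genes, 7336 of all genes (4669 at 0.01) and 28 genes of the lists (17 at 0.01). The replicate block called 2 Hox genes, 25 list genes and 6837 of all genes, and changed no Hox call. Leaving out 1 library at a time gave 2761 (without KO replicate 1) to 5412 (without WT replicate 3) called genes, with 3108 without WT replicate 1 and 3109 without KO replicate 3. Library size only shifted the median of all genes by 0.10 on the log2 scale and raised the share of higher calls from 57.6% to 71.0%, and the share was 65.4% without KO replicate 1. No filter on low counts called 6406 genes.

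Small changes of genes that were not called turned sign when a library was left out: Hoxc13 ranged from -0.060 (without WT replicate 3) to 0.24, with -0.0040 without KO replicate 2. Hoxb13 ranged from -0.11 (without WT replicate 3) to 0.36, with -0.0064 without KO replicate 1. Without KO replicate 2, Hoxb4 (-0.015 to 0.65) and Hoxc4 (-0.047 to 0.17) were negative. With a floor of 10 counts, 9 Hox genes in WT and 11 in KO exceeded it in every library. The mean WT Hoxa sum was 3.87 CPM with library size only. No mESC Hox site scored 0.7 or more, so 0 Hox genes had one, while HEK293T counts stayed between 30 and 32. At these depths a Hox gene below 3 counts cannot be told from an absent one.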
